A study of Mus musculus with 4 samples.

Results

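The prostaglandin E2 (PGE2) pathway was examined in kidneys of tubule-specific Apela knockout mice after ischemia-reperfusion injury (I/R). It was taken as 10 genes chosen by name, of 54078 features in the table. These were the cyclooxygenases Ptgs1 and Ptgs2, the terminal synthases Ptges, Ptges2 and Ptges3, the receptors Ptger1, Ptger3 and Ptger4, and the clearance genes Hpgd and Slco2a1. All 10 were present in the table, each under a single identifier.

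The KO mice were Apela flox/flox mice carrying Cre under the Ksp-cadherin promoter, which is active in renal tubular epithelium and not in vessels or stroma, so other kidney cells keep an intact Apela. The WT mice were their age-matched Apela flox/flox Cre-/- littermates, so both genotypes carry the floxed allele, and all were adult males. Both renal pedicles were clamped for 30 min in every mouse, and kidneys were taken at day 3 after reperfusion. No uninjured kidney was sequenced, so the values compare genotypes under injury only. Each library is described as RNA pooled from 3 mice, with 2 WT pools and 2 KO pools, and n counts pools. The labels give a C57BL/6 x 129S4/SvJae strain and the study's methods C57BL/6. The design text names adipose tissue as the source of RNA and the sample labels the kidney.

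PGE2 is the main prostaglandin of the kidney, where it acts on blood flow, renin release and salt and water transport. Phospholipases free arachidonic acid from membranes, cyclooxygenases convert it to PGH2, and a terminal synthase turns PGH2 into PGE2. PGE2 then signals through G protein-coupled EP receptors on nearby cells. The prostaglandin transporter encoded by Slco2a1 takes PGE2 into cells, where the 15-hydroxyprostaglandin dehydrogenase encoded by Hpgd inactivates it. Carbonyl reductase 1 (Cbr1) can instead convert PGE2 to PGF2alpha, and the study linked Cbr1 and its isoenzyme Cbr3 to the renal PGE2 level.

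The libraries held between 16045724 and 16927742 reads on genes, recovered from the deposited FPKM. The knocked-out gene itself, Apela, was at FPKM 5.27 and 4.57 in WT against 0.536 and 0.245 in KO, which fits the labels. Markers of proximal tubule, thick ascending limb, collecting duct, endothelium, fibroblasts and macrophages were detected in all 4 pools, with a summed FPKM of 4 proximal tubule markers between 729 and 1345. Of 4 neutrophil markers Ly6g had 0 reads in every pool and S100a8, S100a9 and Csf3r were detected in each, with a summed FPKM between 9.75 and 22.0. The brown fat marker Ucp1 had 0 reads in every pool. The summed FPKM of 4 adipocyte markers ran from 0.294 to 1.43 across WT and from 3.17 to 8.27 across KO, with Cidec the main contributor. Of these markers Adipoq had 0 reads in both WT pools and in KO pool 1, and 6 in KO pool 2. Plin1 had 4 and 1 reads in WT pools 1 and 2, against 27 and 9 in KO pools 1 and 2. Plin1 and Cidec were thus higher in both KO pools (19.7% of all genes tested below), and Adipoq and Ucp1 overlapped. In bulk RNA, fewer cells of a type and less RNA per cell cannot be told apart.

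Among the tested members Hpgd, Ptger3 and Ptges had the largest log2 fold changes between the genotypes, and the sequence before the start site is shown for these. Each run is the 250 bases upstream of the RefSeq start in GRCm38.p6, read 5′ to 3′ on the strand of the gene. It lies at chr8:56294302-56294551 (plus strand) for Hpgd, chr3:157566626-157566875 (plus strand) for Ptger3 and chr2:30903298-30903547 (minus strand) for Ptges. Capitals mark matches on either strand to the GC box GGGCGG, the only motif of those searched that these 3 windows hold.
Hpgd: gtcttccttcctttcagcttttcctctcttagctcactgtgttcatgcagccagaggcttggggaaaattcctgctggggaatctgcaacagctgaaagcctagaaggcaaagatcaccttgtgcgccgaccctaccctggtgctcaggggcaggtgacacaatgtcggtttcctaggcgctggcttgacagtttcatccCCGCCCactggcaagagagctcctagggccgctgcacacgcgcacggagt
Ptger3: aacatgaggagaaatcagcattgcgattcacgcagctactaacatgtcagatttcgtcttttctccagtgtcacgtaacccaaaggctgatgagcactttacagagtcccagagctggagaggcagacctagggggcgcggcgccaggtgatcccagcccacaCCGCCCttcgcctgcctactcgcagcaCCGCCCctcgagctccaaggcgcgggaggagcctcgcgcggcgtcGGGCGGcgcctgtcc
Ptges: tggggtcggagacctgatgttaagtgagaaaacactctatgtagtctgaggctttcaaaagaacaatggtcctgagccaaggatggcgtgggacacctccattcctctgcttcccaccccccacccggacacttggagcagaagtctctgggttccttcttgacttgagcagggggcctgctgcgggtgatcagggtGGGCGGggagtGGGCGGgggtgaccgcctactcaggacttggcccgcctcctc

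Hpgd had 1 GC box, 50 bases before the start, Ptges had 2 and Ptger3 had 3. Windows were found for 9 of the 10 members, with none for Ptger1, and 7 of the 9 held a GC box, against 32.7% of the 32851 windows of the same length in the whole RefSeq table. The member windows had a GC content of 48.0% to 73.2%, and 8 of the 9 lay above the median of all windows, 52.4%. The CCAAT box (CCAAT) was found in Ptger4 only and in 33.8% of all windows, the TATA box (TATAAA) in Slco2a1 only and in 12.4%, and the E-box (CACGTG) in Ptges2 only and in 6.02%. The half-site of the cAMP response element (CGTCA), in 17.8% of all windows, and the core of the antioxidant response element (TGACNNNGC), in 10.2%, matched in none of the 9. These motifs were searched on both strands, and matches of the last 2 can overlap each other. A match describes the letters in this window and is not evidence of a bound factor. The RefSeq start of Ptges lies 26566 bases inside the gene model used for counting, and that of Slco2a1 lies 19775 bases inside.

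Members differed far more from each other than between genotypes. By FPKM, which is per length, Ptges3 was highest with a mean of 30.5 over the 4 pools, and Ptgs2 and Ptger1 were lowest at 0.384 and 0.374. Ptges2 (10.7), Ptges (9.34), Ptgs1 (9.005), Slco2a1 (8.92), Hpgd (6.39) and Ptger3 (5.92) lay in between, and each overlapped the next in its range over the pools. Ptger4 followed at 1.83, apart from both neighbours in the order. The deposited lengths matched the union of all annotated exons for all 10 members. Per length of the longest coding transcript instead, a choice made after the data were seen, Slco2a1 moved from rank 5 to rank 2 with a level of 17.0, Ptger3 from rank 7 to rank 5 with 10.7 and Ptgs1 from rank 4 to rank 3 with 12.2. Ptges2 went from rank 2 to rank 4 and Ptges from rank 3 to rank 6, and Ptger4 kept rank 8 with 3.67.

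**Figure D1:**
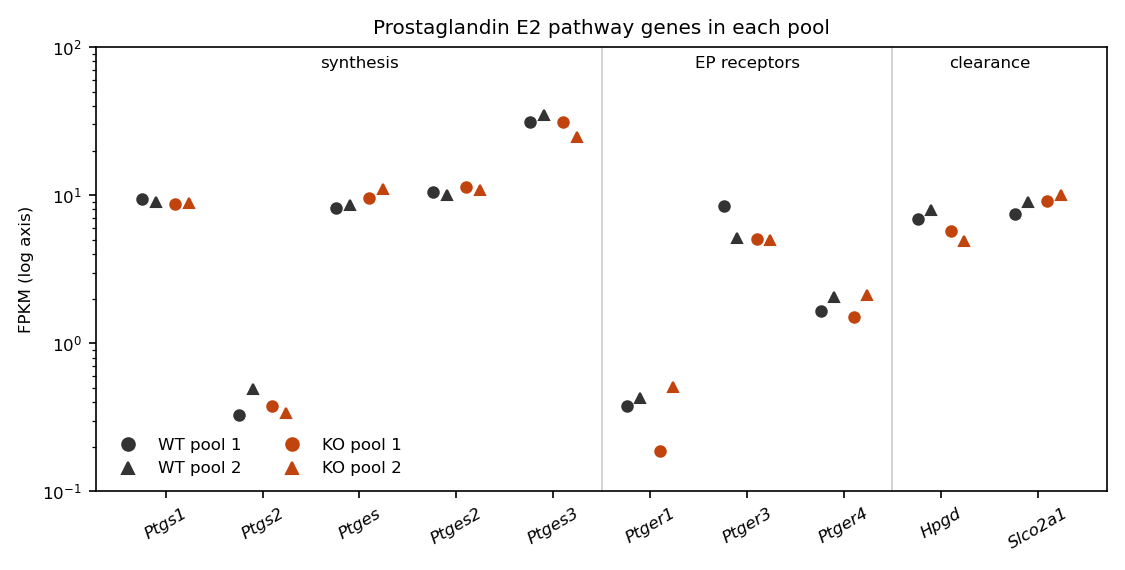
FPKM of the 10 members in each of the 4 pools on a log axis, grouped by role, with WT pools in dark grey and KO pools in orange (circle, pool 1, and triangle, pool 2). The members span from 0.186 for Ptger1 in KO pool 1 to 34.7 for Ptges3 in WT pool 2, while the highest and lowest pool of any tested member lie within 1.70-fold of each other (Ptger3).

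Genotypes were compared on log2(FPKM + 0.5) by limma, a linear model that shares information on spread between genes. Only genes whose FPKM averaged 0.5 or more entered, and p-values were corrected by the Benjamini-Hochberg (BH) method over all 15414 of them. SE is the standard error of a log2 fold change. Of the 10 members 8 passed this filter, and Ptgs2 and Ptger1 were below it. At an adjusted p-value under 0.05, 0 of the 8 were called, as were 0 of all genes tested (0%). The knocked-out Apela was not called either, at a log2 fold change of -2.62 (BH-adjusted p = 0.466 by limma). A lack of calls here therefore does not show a lack of differences. At an unadjusted p under 0.05 there was 1 of the 8 members, Hpgd, where 6.32% of all tested genes were. The adjusted p-values of the 8 ran from 0.785 to 0.985. Both KO pools lay on the same side of both WT pools for 7 of the 8 (37.8% of all tested genes did so), with 3 higher in KO (19.7% of all tested genes) and 4 lower (18.1%). This split depended on the scaling. The deposited FPKM carry size factors, and with FPKM scaled by reads on genes in their place 1 member was higher (12.9% of all tested genes) and 4 were lower (24.1%), while the pools of Ptges2 and Slco2a1 overlapped. The median log2 fold change was -0.05 over the 8 and 0.01 over all tested genes. With 2 pools a genotype, the smallest two-sided p of an exact permutation test is 0.333, and values are therefore given per pool. Mice of a pool are not separate samples, and p-values measure the spread between pools.

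**Figure D2:**
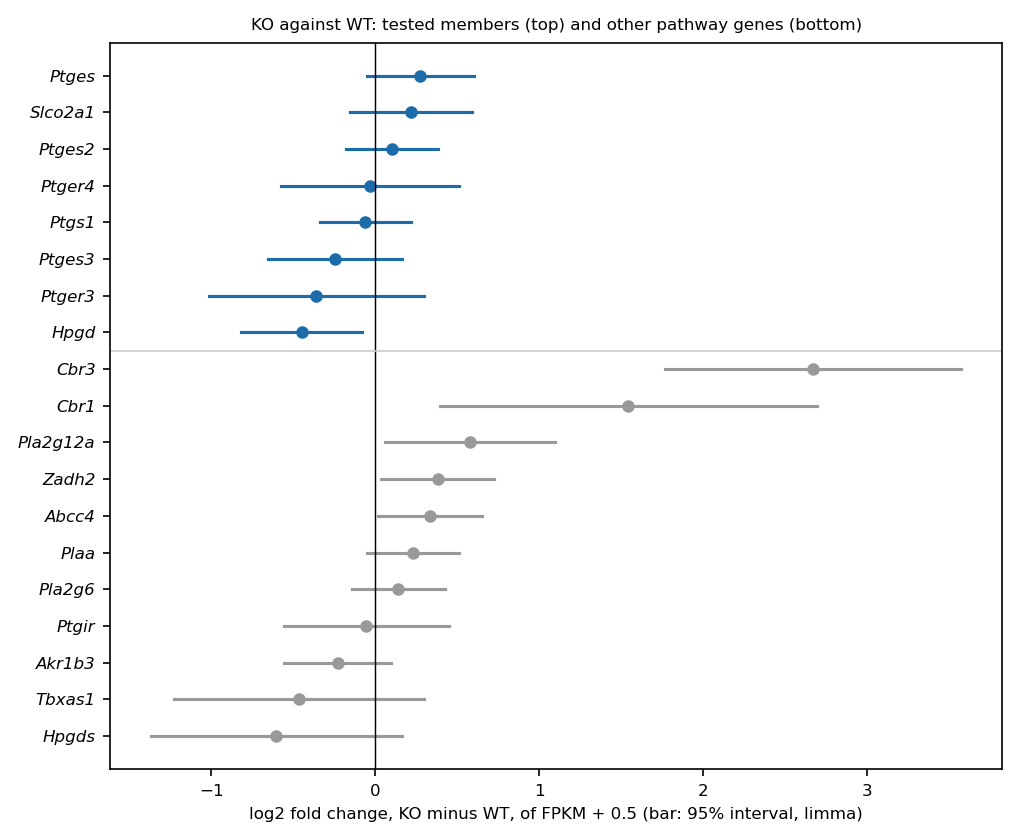
Log2 fold change of FPKM + 0.5, KO minus WT, with its 95% interval from limma, for the 8 tested members (blue, top) and for the other pathway genes whose pools did not overlap (grey, bottom). Among the members only the interval of Hpgd, from -0.82 to -0.08, leaves out 0 before adjustment.

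The cyclooxygenases carry out the committed step of prostanoid synthesis. Ptgs1 (ENSMUSG00000047250, COX-1, largely constitutive and abundant in collecting duct) lies on chromosome 2 of GRCm38 from 36230426 to 36252272. The 2 WT pools had an FPKM of 9.39 and 9.02, the KO pools 8.73 and 8.88. The KO pools were the lower ones, but the log2 fold change was only -0.06 (SE 0.11, BH-adjusted p = 0.930 by limma). With 560 to 603 reads a pool, the counting error of a pool was 4.07% to 4.23%, about the size of the difference between the group means, 9.21 and 8.80. The 95% interval of the log2 fold change ran from -0.34 to 0.22. This fold change was -0.03 without WT pool 1 and -0.13 with FPKM scaled by reads on genes.

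Ptgs2 (ENSMUSG00000032487), on chromosome 1 from 150100031 to 150108227, encodes the inducible COX-2, which in kidney is found in macula densa and medullary interstitial cells. In WT its FPKM was 0.326 and 0.495, in KO 0.379 and 0.336, so the groups overlapped. Only 24 to 39 reads a pool lay behind these values, a counting error of 16.0% to 20.4%, and a difference of that size was not detectable at this depth. At this time after injury Ptgs1 was therefore the main cyclooxygenase transcript per length in all 4 pools, at 28.8 and 18.2 times the Ptgs2 level in WT and 23.1 and 26.4 times in KO.

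The terminal synthases convert PGH2 to PGE2. Ptges (ENSMUSG00000050737), the inducible microsomal synthase mPGES-1, lies on chromosome 2 from 30889471 to 30929863 on the minus strand. It was at FPKM 8.25 and 8.55 in WT pools 1 and 2, against 9.54 and 11.0 in KO pools 1 and 2. Both KO pools lay above both WT pools, with a mean of 10.3 ± 1.07 (SD, n = 2) against 8.40 ± 0.212 (SD, n = 2). The log2 fold change was 0.28 (SE 0.12, BH-adjusted p = 0.797 by limma), with an interval from -0.05 to 0.60. Leaving out any 1 pool gave values from 0.17 to 0.38, and could not change its sign because the pools did not overlap.

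Ptges2 (ENSMUSG00000026820), a membrane-associated synthase, lies on chromosome 2 from 32395896 to 32405772. It had an FPKM of 10.5 and 10.03 in WT and of 11.3 and 10.8 in KO. The KO pools were higher without overlap in the deposited FPKM, but the log2 fold change was 0.10 (SE 0.11, BH-adjusted p = 0.870 by limma). Scaled by reads on genes it was 0.04. The pools of a genotype differed from each other by about as much as the KO pool nearest to WT did from WT.

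Ptges3 (ENSMUSG00000071072), the cytosolic synthase also known as the HSP90 co-chaperone p23, lies on chromosome 10 from 128058954 to 128077272. WT pools 1 and 2 had an FPKM of 31.4 and 34.7, and KO pools 1 and 2 had 31.1 and 24.8. KO pool 2 was low and KO pool 1 lay next to WT pool 1, which gave a log2 fold change of -0.24 (SE 0.16, BH-adjusted p = 0.809 by limma), of -0.09 without KO pool 2 and of -0.40 without KO pool 1. The reads of this gene are uncertain, because a processed pseudogene on chromosome 6, Ptges3-ps, shares them. All 431 windows of 50 bases in the Ptges3-ps transcript occur in Ptges3 transcripts. Ptges3-ps was listed at an FPKM of 53.0 and 44.6 in WT and of 49.8 and 54.9 in KO. Reads of both genes together came to 1527 and 1690 in WT and 1552 and 1322 in KO. As CPM of the same scaling totals that underlie the FPKM, these sums were 95.01 and 98.2 in WT and 92.8 and 81.4 in KO, with the KO pools still below the WT pools. How the authors placed reads that fit both genes is not given in the sources used here.

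Among the EP receptors the largest value belonged to Ptger3 (ENSMUSG00000040016), which encodes EP3, a receptor that lowers cAMP and is known from the thick ascending limb and collecting duct. It lies on chromosome 3 from 157566892 to 157645888. FPKM values were 8.50 and 5.10 for WT, compared with 5.08 and 4.99 for KO. WT pool 1 alone was high and the other 3 pools were nearly level, with a gap between WT pool 2 and the KO pools that was smaller than the counting error of 3.59% to 4.66%. The log2 fold change was -0.36 (SE 0.25, BH-adjusted p = 0.824 by limma). It was -0.02 without WT pool 1 and -0.70 without WT pool 2. Of the 4 thick ascending limb markers, of which Nos1 was under the filter, 0 separated the genotypes (37.8% of all tested genes did). Their summed FPKM was 1257 and 881 in WT and 1318 and 1015 in KO, highest in KO pool 1 and lowest in WT pool 2. The summed FPKM of 4 collecting duct markers was 318 and 202 in WT and 353 and 269 in KO. Their part in the Ptger3 value was not tested.

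Ptger4 (ENSMUSG00000039942), on chromosome 15 from 5206661 to 5244187 on the minus strand, encodes EP4, which raises cAMP and dilates vessels. It is the receptor through which the study discussed the action of PGE2 and Paricalcitol. Its FPKM was 1.65 and 2.05 in WT and 1.51 and 2.10 in KO. The KO range enclosed the WT range, and pool 1 was the lower one in each genotype. The log2 fold change was -0.03 (SE 0.21, BH-adjusted p = 0.985 by limma), with a 95% interval from -0.58 to 0.51, so that a difference of either sign within it is not detectable here. The neighbouring Ttc33 on the other strand shares 82 of the 6648 exonic bases.

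Ptger1 (ENSMUSG00000019464), on chromosome 8 from 83666678 to 83672753, encodes EP1, which raises calcium and acts in collecting duct. It had an FPKM of 0.376 and 0.426 in WT and of 0.186 and 0.508 in KO, from 17 to 45 reads. The KO pools held both the lowest and the highest value. The counting error was 14.9% to 24.3% a pool, and the KO pools differed from each other by more than that. Ptger2, which encodes EP2 and was counted among the other genes of the pathway, had 6 and 10 reads in WT and 4 and 2 in KO. Per length, the order of the EP receptor transcripts in these kidneys was thus Ptger3, Ptger4, Ptger1 and Ptger2.

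Clearance of PGE2 was represented by the enzyme and by the transporter. Hpgd (ENSMUSG00000031613) lies on chromosome 8 from 56294585 to 56321043 in a single annotated transcript of 7 exons and 1683 nt. Its FPKM was 6.95 and 7.94 for WT, compared with 5.75 and 4.90 for KO, from 134 to 230 reads. Both KO pools lay below both WT pools, with a mean of 5.33 ± 0.602 (SD, n = 2) in KO against 7.45 ± 0.702 (SD, n = 2) in WT, a ratio of 0.716. The log2 fold change was -0.45 (SE 0.14, interval -0.82 to -0.08), with an unadjusted p of 0.0270 and a BH-adjusted p of 0.785 by limma. Leaving out any 1 pool gave values from -0.55 to -0.34, and the unadjusted p was 0.0532 with the replicate block and 0.0536 with voom weights. Of the 4 proximal tubule markers, Slc34a1, Lrp2 and Slc5a2 were also lower in both KO pools (18.1% of all tested genes) and Slc22a6 was higher (19.7%), and their summed FPKM was 1345 and 1016 in WT and 729 and 1146 in KO. Their part in the Hpgd value was not tested.

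Slco2a1 (ENSMUSG00000032548), on chromosome 9 from 102988712 to 103096002, had an FPKM of 7.44 and 9.02 for WT, compared with 9.18 and 10.05 for KO, from 1619 to 2210 reads. WT pool 1 was the low one, and WT pool 2 lay just below KO pool 1, which made a log2 fold change of 0.22 (SE 0.14, BH-adjusted p = 0.814 by limma) of 0.09 without WT pool 1 and of 0.35 without WT pool 2. This transporter is also expressed by endothelial cells. Of 4 endothelial markers, 2 (Kdr and Tie1) were higher in both KO pools in the deposited FPKM (19.7% of all tested genes), and scaled by reads on genes both overlapped. The summed FPKM of the 4 was 36.3 and 47.2 in WT and 43.6 and 55.4 in KO, lowest in WT pool 1 and highest in KO pool 2, as for Slco2a1. Their part in the Slco2a1 value was not tested. By qPCR the study reported lower Tie1, but not Kdr, in injured KO mice, and by staining fewer CD31-positive vessels. Its direction for Tie1 is thus the opposite of that in the deposited FPKM.

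**Figure D3:**
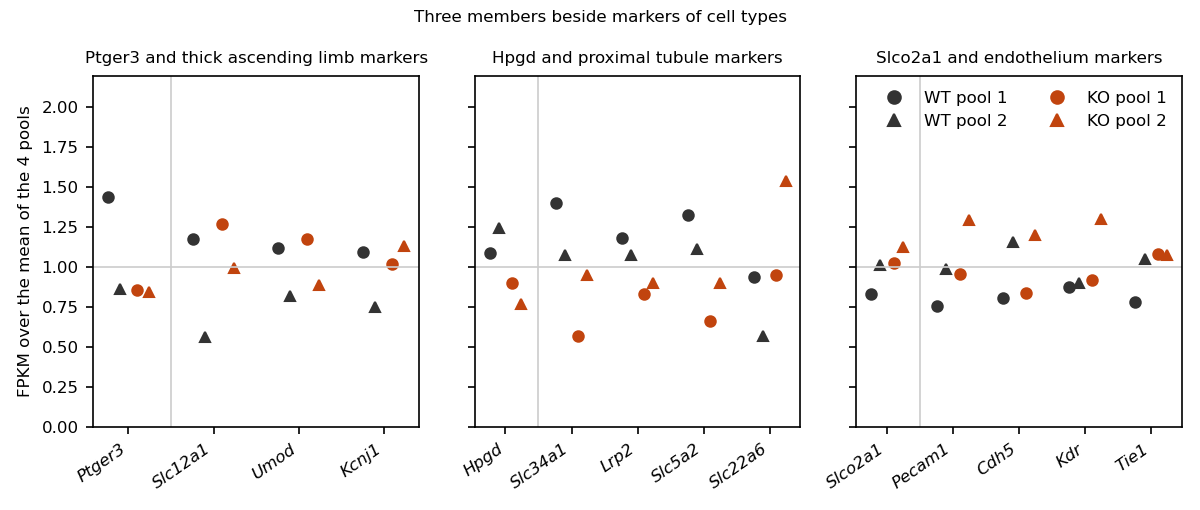
FPKM of Ptger3, Hpgd and Slco2a1, and of markers of the thick ascending limb, proximal tubule and endothelium that passed the filter, each divided by its mean over the 4 pools (WT dark grey, KO orange, circle for pool 1, triangle for pool 2). Ptger3 is high in WT pool 1 alone, and of the 4 proximal tubule markers Slc34a1, Lrp2 and Slc5a2 are lower in both KO pools, as is Hpgd, while Slc22a6 is higher in both.

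Set side by side, the synthase Ptges and the dehydrogenase Hpgd differed in opposite directions. This pair was chosen after its values were seen and so was given no test. The ratio of their FPKM was 1.19 and 1.08 for WT, compared with 1.66 and 2.25 for KO. Because both genes already lay apart in opposite directions, this ratio could not overlap between the genotypes. Both genes contributed to this ratio, and KO pool 2 had at once the highest Ptges and the lowest Hpgd level. By ELISA the study reported a lower renal PGE2 level in injured KO mice than in injured WT mice. How these transcripts relate to that level was not tested.

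**Figure D4:**
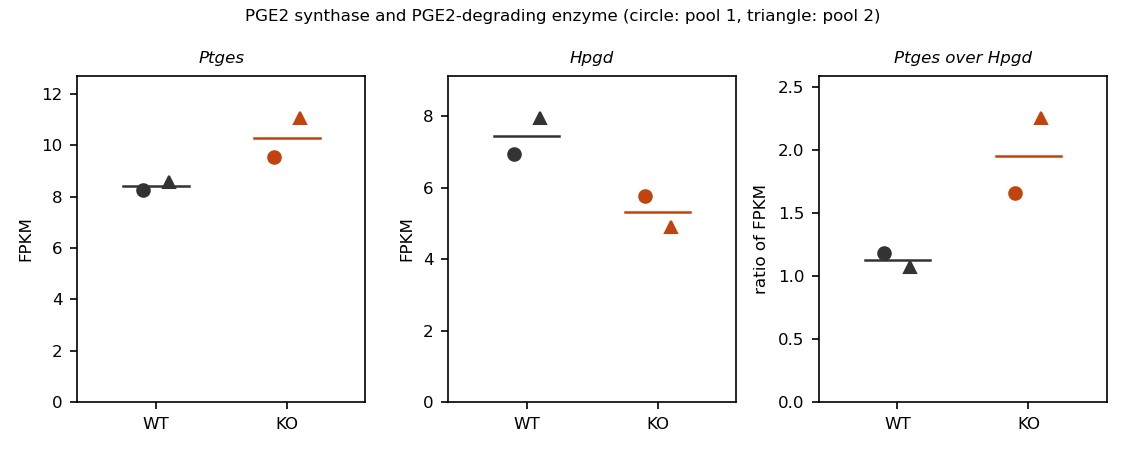
FPKM of Ptges and Hpgd and their ratio in each pool, with lines at the group means and axes from 0. The Ptges means are 8.40 in WT and 10.3 in KO, the Hpgd means 7.45 and 5.33, and the mean ratios 1.13 and 1.95.

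Other genes of prostanoid synthesis, reception, transport and breakdown were read from the same fit. Of 32 listed names 30 were in the table and 22 were tested, of which 0 were called at an adjusted p under 0.05 and 5 had an unadjusted p under 0.05 (6.32% of all tested genes had). Cbr1 and Cbr3, which the study had singled out on these samples, were among the 5, and without them there were 3 of 20. The pools did not overlap for 11 of the 22, with 7 higher and 4 lower in KO, where 37.8% of all tested genes did not overlap, 19.7% higher and 18.1% lower. With Cbr1 and Cbr3 still counted, scaling by reads on genes gave 6 higher and 5 lower (12.9% and 24.1% of all tested genes), and quantile normalization gave 7 higher and 2 lower (18.2% and 18.6%), with Tbxas1 and Ptgir overlapping. In the deposited FPKM without Cbr1 and Cbr3, 5 were higher and 4 lower. The median log2 fold change of the 22 was -0.05. The 11 with overlapping pools had log2 fold changes from -0.55 for Pla2g5 to 0.22 for Ptgfr. Cbr3 and Cbr1 had the largest log2 fold changes of the list. Cbr1 had an FPKM of 196 and 82.0 in WT and of 379 and 362 in KO, with a log2 fold change of 1.55 (SE 0.44, BH-adjusted p = 0.764 by limma). Cbr3 had an FPKM of 17.8 and 8.74 in WT and of 85.7 and 79.4 in KO, with a log2 fold change of 2.67 (SE 0.34, BH-adjusted p = 0.466 by limma). The study counted Cbr1 and Cbr3 among its differentially expressed genes at an adjusted p under 0.05, which neither reached here. It also reported both higher in injured KO than in injured WT mice by qPCR and immunoblot. Per length the Cbr1 level was 28.1 and 10.3 times that of Hpgd for WT, compared with 65.9 and 73.9 times for KO.

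Upstream of the cyclooxygenases, 6 of the 11 genes for phospholipases and their activator were tested. In the deposited FPKM the pools of 3 did not overlap, each with KO higher (19.7% of all tested genes). Scaled by reads on genes, Pla2g6 overlapped and Pla2g4a was lower in both KO pools. Pla2g12a, a secreted phospholipase, had an FPKM of 7.66 and 5.51 in WT and of 10.9 and 9.07 in KO, with a log2 fold change of 0.58 (unadjusted p = 0.0359, BH-adjusted p = 0.785 by limma). Plaa and Pla2g6 had log2 fold changes of 0.23 and 0.14. Pla2g4a, the cytosolic phospholipase that releases arachidonic acid on cell activation, had an FPKM of 2.09 and 2.90 in WT and of 2.05 and 2.12 in KO, with pools that overlapped in the deposited FPKM.

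Of the 6 synthases for other prostanoids, the pools of 3 did not overlap in the deposited FPKM, each with KO lower (18.1% of all tested genes), and after quantile normalization 2 did not, Hpgds and Akr1b3. Hpgds, the haematopoietic prostaglandin D synthase, had an FPKM of 0.620 and 1.16 in WT and of 0.391 and 0.403 in KO. Tbxas1, the thromboxane synthase, had 0.931 and 1.66 in WT and 0.631 and 0.928 in KO, so that KO pool 2 lay just under WT pool 1, and its highest value was also in WT pool 2. Both are known from blood-derived cells, and 4 macrophage markers had a summed FPKM of 46.7 and 82.2 in WT and of 68.0 and 44.1 in KO, again highest in WT pool 2. Their part in these values was not tested. Akr1b3, a PGF synthase, had a log2 fold change of -0.23.

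Among the other prostanoid receptors Ptgfr, the PGF2alpha receptor, was the highest, with an FPKM of 7.20 and 4.73 in WT and of 6.58 and 7.27 in KO. Its pools overlapped. The prostacyclin receptor Ptgir had an FPKM of 0.933 and 0.994 in WT and of 0.897 and 0.924 in KO, a log2 fold change of -0.05. Ptgdr had 0 reads in every pool, which allows an expected count of up to 3 reads a pool at 95% confidence, and Ptgdr2 had between 0 and 4.

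In export and breakdown, Abcc4, the efflux pump that carries PGE2 out of cells, had an FPKM of 11.4 and 13.0 in WT and of 15.9 and 15.2 in KO. Its log2 fold change was 0.34 (unadjusted p = 0.0427, BH-adjusted p = 0.785 by limma). Zadh2, which reduces 15-keto prostaglandins after Hpgd has acted, had an FPKM of 22.4 and 19.1 in WT and of 26.2 and 28.0 in KO, with a log2 fold change of 0.38 (unadjusted p = 0.0376, BH-adjusted p = 0.785 by limma). The pools of Ptgr1 and Ptgr2, which act at the same step, overlapped.

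The genes whose pattern over the 4 pools was nearest to that of Hpgd, the tested member with the largest log2 fold change, were Gm4739, Slc41a2 and Nmi. Their root mean square distances on centred log2 values were 0.0040, 0.010 and 0.021, among 13402 other genes averaging an FPKM of 1 or more. Over 4 libraries such likeness is common, as 206 genes lay within 0.1, and it is given as a description only.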

How the data were processed

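RNA-sequencing of total kidney RNA was compared between 2 WT and 2 KO pools. The authors deposited a single table of FPKM (fragments per unit of gene length and of library size) per gene and library, with gene positions and lengths. The submitters' processing notes name HISAT2 2.0.5 and the builds mm10 and GRCm38.p6, while the counting tool, its use of strand and its handling of reads that fit several genes are not given in the sources used here. Positions of the members were identical in GENCODE M21.

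Whole reads were recovered by multiplying each FPKM by the gene length and dividing by the smallest such product of its library (100% of nonzero values came out whole, within 0.01). The totals implied by the FPKM were 96.8% to 107% of the reads on genes, and equalled the geometric mean of those reads times median-of-ratios size factors computed from them, so the deposited FPKM already hold such a normalization. The recovered reads gave the depth, the counting error (100 divided by the square root of the reads, in percent) and the voom weights. Such errors cover counting only. Replicate pools differed by more than sampling noise, the chi-square averaging 38.2 a gene in WT and 27.0 in KO, over genes averaging at least 10 reads.

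Log2(FPKM + 0.5) of genes averaging an FPKM of 0.5 or more was fitted with limma 3.58.1 in R 4.3.3 (lmFit, eBayes with a mean-variance trend). Genotype was the only term, tests were two-sided and Benjamini-Hochberg (BH) adjustment ran over 15414 genes. Fold changes on this scale understate changes of low genes. The study states a threshold of an adjusted p under 0.05 and any fold change, but no model. The fit was tested on simulated data. The text names every member, the listed pathway genes whose pools did not overlap, others of that list by family, Apela, and the 3 genes nearest to the member with the largest change. Ptger2, Pla2g4a, Pla2g5, Ptgfr, Ptgdr, Ptgdr2, Ptgr1 and Ptgr2 were named after their values were seen, and Pla2g4b and Ptger2, which did not overlap, were under the filter. The members and lists were chosen with earlier results of these data known. As alternatives, the pseudocount was set to 0.1 or 1, the filter dropped (genes at 0 in all libraries still left out) or raised to 1, values were quantile normalized or (chosen after seeing the data) scaled by reads on genes, the trend was left out, a replicate block was added, voom weights were used, only protein-coding genes were kept, p was left unadjusted, or a pool was omitted. Promoter sequences came from RefSeq. Figures used matplotlib 3.10.9 and Python 3.11.15. Protein sequences were not used here, and 1 item is not reported here.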

Additional observations from a re-analysis of the deposited data

How the results depend on the processing

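The count of members past the threshold was 0 in every setting run, and 1 of 8 at an unadjusted p under 0.05. The corresponding counts at an unadjusted p were 974 for all tested genes and 5 for the other genes of the pathway, against 0 at an adjusted p. With a pool left out in turn, the count for all tested genes at an unadjusted p ranged from 687, without WT pool 2, to 1720, without WT pool 1. With the replicate number as a block, which pairs nothing by design (the correlation of deviations of same-numbered pools was -0.0017 across 15414 genes), 0 genes were called, 932 had an unadjusted p under 0.05 and 0 members did. Hpgd also left that unadjusted limit with voom weights, without WT pool 2 and without KO pool 2, and Ptger3 had an unadjusted p of 0.0111 without WT pool 2 (BH-adjusted p = 0.992 by limma).

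The median log2 fold change of the 8 tested members was -0.05, and -0.11 when FPKM were scaled by reads on genes, a choice made after the data were seen, which moved the median of all genes from 0.01 to -0.06. That scaling left 5 members with pools apart (37.0% of all tested genes), 1 of them higher in KO, and quantile normalization left 6 (36.8%), with Ptger3 overlapping. With a pool left out in turn it ranged from -0.079, without KO pool 2, to 0.013, without KO pool 1, and the cause was not tested. The log2 fold change of Ptger4 ranged from -0.22 without KO pool 2 to 0.15 without KO pool 1, being 0.09 without WT pool 2. No other tested member changed direction in any setting. For most settings this was fixed in advance. The pools of the other 7 did not overlap, so leaving out a pool could not reverse them. Changing the filter, the trend, the replicate block or the kinds of genes kept leaves a fold change as it is. With a pool left out, the lone pool of a genotype is assumed to vary like the others. No scaling moved the median of all genes by over 0.1. Ptger1 rested on 17 to 45 reads a pool and Ptgs2 on 24 to 39, which limits the precision of both. The levels of Slco2a1, Ptger3, Ptger4 and Ptgs1 depend on the length they are divided by.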
